A study of Mus musculus with 6 samples.

Results

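The genes described here are 32 genes of protein folding, quality control and stress signalling in the endoplasmic reticulum (ER), chosen by name from the 54532 genes of an RNA sequencing table. They comprise 9 chaperones and cochaperones, 5 genes of disulfide bond formation, 2 secreted stress-inducible proteins, 8 genes of ER-associated degradation, 4 genes of the stress sensors and their transcription factor Xbp1, and 4 genes of the protein translocation channel. The rule uses gene names only and no measured value.

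RNA was sequenced from N2a (Neuro2A) cells, a mouse neuroblastoma line that the labels list under strain C57BL/6. In 3 libraries the cells had received a control siRNA (si-NC), and in 3 libraries an siRNA against circRtn4 (si-circRtn4), a circular RNA made from exons of Rtn4. Both groups are transfected cultures of the same line, and no untransfected culture was analysed here. The general methods of the study describe transfection of N2a cells with siRNA at 100 nM for 24 h, followed by differentiation for 48 h with 10 μM retinoic acid. The labels name only growth medium, so the differentiation state of these libraries is not settled. The comparison of si-circRtn4 with si-NC asks how transcript levels differ when circRtn4 is targeted.

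Levels are FPKM, the fragments on a gene scaled by its length and by library depth, as the authors deposited them. Reads recovered from FPKM and gene length numbered 13541198 to 15122063 per library. The ER genes are moderately to strongly expressed, with group means of 6.99 FPKM or more for all but Derl3, and from 527 to 16513 reads per library for the chaperones. Differences were tested with limma on log2(FPKM + 1), over the 12749 genes whose mean reached 1 FPKM, and a gene was called at a Benjamini-Hochberg adjusted p under 0.05 over these genes. Of the 32 ER genes, 31 were tested, and Derl3 was too low. The fold change is written as si-circRtn4 against si-NC on the log2(FPKM + 1) scale, which understates changes of low genes. Values after ± are SD over 3 libraries per group. The exact two-sided permutation test of 3 libraries against 3 cannot go below 0.1, which all genes with separate groups reached.

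Rtn4, the gene that gives rise to circRtn4, was at 65.9 ± 4.49 FPKM in si-NC and 56.5 ± 6.32 FPKM in si-circRtn4 (adjusted p = 0.216 by limma). A gene's FPKM does not separate linear from circular RNA, so the level of circRtn4 cannot be read from it. By qRT-PCR in N2a cells, the study reports efficient knockdown of circRtn4 by its siRNA and no significant change of linear Rtn4. All 11 neuronal and neuroblastoma marker genes reported, such as Tubb3 and Gap43, had a mean of at least 1 FPKM. Their summed level was 1369 to 1468 FPKM in si-NC and lower in si-circRtn4, at 858 to 1199.9 FPKM. Of the 11, 4 were lower without overlap, namely Chga (means of 255 and 85.2 FPKM), Phox2a (212 and 147), Dbh (5.99 and 0.602) and Th (2.54 and 0.712). The groups of the other 7 overlapped, with a sum of 866 to 1001 FPKM in si-NC and 650.0 to 942 FPKM in si-circRtn4, and Stmn2 had the higher mean in si-circRtn4 (22.6 and 25.1 FPKM). Haematopoietic, fibroblast and epithelial markers had 0 of 4 genes each at that level, with sums of at most 1.32 FPKM in any library. Of 4 glial markers only Mbp reached it, with a sum over the 4 genes of 2.94 to 4.99 FPKM. The part of these marker differences in the values of the ER genes was not tested, and in bulk RNA fewer cells of a type and less RNA per cell cannot be told apart.

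The ER folds and exports secreted and membrane proteins. When unfolded proteins accumulate in it, the sensors IRE1 (Ern1), ATF6 (Atf6) and PERK (Eif2ak3) start the unfolded protein response. IRE1 splices Xbp1 mRNA into the form that encodes an active transcription factor, ATF6 is cut in the Golgi to release its own transcription factor domain, and PERK slows translation and favours the translation of ATF4. XBP1 and ATF6 raise transcription of chaperones and degradation genes, in part through the ER stress response element (ERSE). FPKM per gene measures neither the splicing of Xbp1 nor the cutting of ATF6, so it can show the transcript output of this response but not its signalling steps. Secretory cells keep many of these genes active without acute stress.

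Promoter sequence was available for 27 of the 32 genes in the RefSeq table of GRCm38.p6, which spans 250 bases before to 50 bases after each annotated start. ERSE, searched for on both strands as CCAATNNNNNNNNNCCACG with no mismatch, was present in 9 of these 27 promoters (33.3%), against 37 of all 27025 genes in the table (0.137%). The 9 genes were Calr, Canx, Creld2, Derl3, Dnajc3, Hsp90b1, Hspa5, Pdia6 and Syvn1, and Hsp90b1 held 2 sites. Several are textbook targets of the response, so this share describes the list and is no independent finding. The sites of the 8 tested genes are printed below because the levels of these genes are followed as a set further on. Each is read 5′ to 3′ on the strand of its gene, with the match in capitals, in either the forward form (CCAAT first) or its reverse complement (ATTGG last). For Hspa5 only the match is printed, since the annotation of the deposited table starts the gene upstream of it.
Hspa5 (chr2:34772025-34772043, plus strand, 65 to 47 bases before the start): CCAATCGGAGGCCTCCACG
Calr (chr8:84847055-84847113, minus strand): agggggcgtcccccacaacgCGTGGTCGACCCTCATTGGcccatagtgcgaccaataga
Canx (chr11:50325780-50325838, minus strand): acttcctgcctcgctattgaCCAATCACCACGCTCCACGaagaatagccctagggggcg
Creld2 (chr15:88819500-88819558, plus strand): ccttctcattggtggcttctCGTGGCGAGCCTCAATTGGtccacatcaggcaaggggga
Hsp90b1, nearer site (chr10:86705513-86705571, minus strand): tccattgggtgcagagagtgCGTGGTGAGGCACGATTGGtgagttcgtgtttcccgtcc
Pdia6 (chr12:17266471-17266529, plus strand): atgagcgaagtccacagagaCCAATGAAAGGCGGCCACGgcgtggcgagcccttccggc
Dnajc3 (chr14:118937807-118937865, plus strand): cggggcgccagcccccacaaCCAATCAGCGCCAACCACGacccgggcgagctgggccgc
Syvn1 (chr19:6046512-6046570, plus strand): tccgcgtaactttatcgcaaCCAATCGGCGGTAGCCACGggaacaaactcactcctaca

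All 8 printed sites lay upstream of the RefSeq start, the farthest being that of Calr at 162 to 144 bases before it and the nearest that of Syvn1 at 44 to 26 bases. The second form of the element, ERSE-II (ATTGGNCCACG), was found in Herpud1 as ATTGGGCCACG (chr8:94386377-94386387, 52 to 42 bases before the start) and in Dnajb11 as ATTGGCCCACG (chr16:22857852-22857862), against 12 of the 27025 genes (0.0444%). The site in Dnajb11 lies just past the RefSeq start. The XBP1 site TGACGTGG was found in 0 of the 27 promoters and in 0.714% of all genes. TGATGNAAN, a composite element bound by ATF4 with its partners, was found in Herpud1 alone (3.70% of the 27, against 4.50% of all genes). Ero1l, Sel1l, Edem1, Dnajb9 and Sec61b, which recur below, held none of the 4 motifs in this window.

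At the level of the whole list the ER genes differed little between the groups. Of the 31 tested, 17 had a positive and 14 a negative log2 fold change, and the median was 0.05, beside 0.00 over all 12749 genes. The fold change lay within 0.2 of 0 for 24 of the 31 (77.4%), against 62.9% of all genes. The limma test called 1 ER gene higher, Ero1l, where 4.36% of all genes were called, and 0 lower, where 4.82% of all genes were called. At an unadjusted p under 0.05 it gave 4 higher (13.1% of all genes) and 3 lower (12.8% of all genes). Limma-voom on recovered reads called 4 higher (7.08% of all genes) and 3 lower (5.69% of all genes). Scaling to TPM raised the median of all genes to 0.09. It shifted their calls from 556 higher and 615 lower to 972 higher (7.62%) and 393 lower (3.08%). With it 3 ER genes were called higher (Ero1l, Sel1l and Dnajb9) and 0 lower. A single gene, Gm23935, held 13.5 to 20.7% of the summed FPKM of a library. Without it in the TPM scaling the median of all genes was 0.02, with 592 of 12748 genes called higher and 538 lower. In that fit 1 ER gene was called higher (Ero1l) and 1 lower (Sec61b). In sum, the 32 genes came to 1937, 2067 and 1966 FPKM under si-NC and to 1882, 2167 and 1771 FPKM under si-circRtn4, which overlap.

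**Figure D1:**
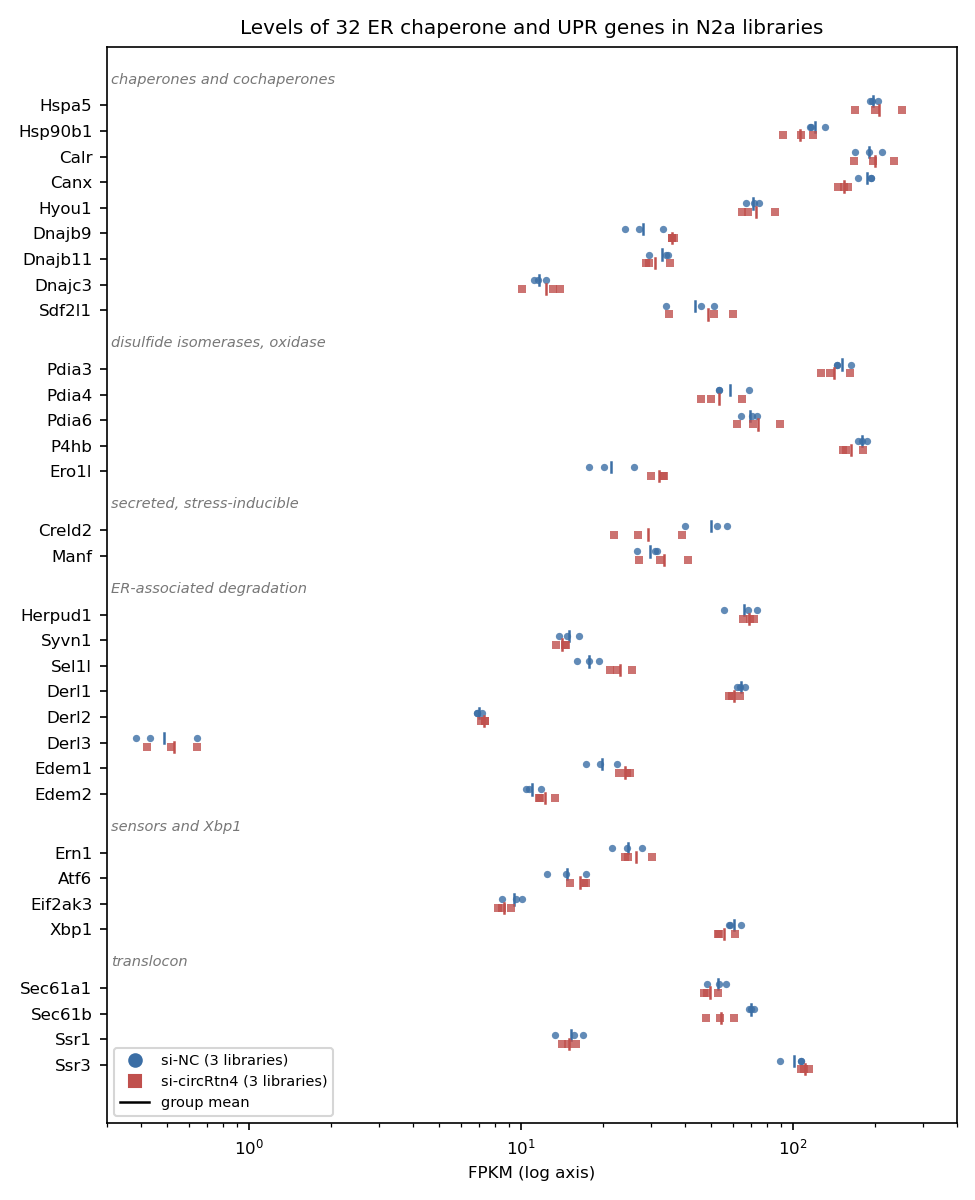
FPKM (log axis) of the 32 ER genes in the 3 si-NC libraries (blue circles) and the 3 si-circRtn4 libraries (red squares), grouped by role, with a short line at each group mean. Hspa5, Calr, Canx, P4hb and Pdia3 are the most abundant, and Derl3 lies below 1 FPKM. The groups are separate in 8 of the 31 tested genes, 5 higher and 3 lower, near the 16.2% and 15.5% of all genes.

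The groups did not overlap for 5 ER genes that were higher (Dnajb9, Ero1l, Sel1l, Edem1 and Ssr3; 16.2% of all genes) and 3 that were lower (Canx, Creld2 and Sec61b; 15.5% of all genes), which is near the background, while 23 overlapped. The replicate numbers 1 to 3 are shared between the groups, and libraries with the same number deviated together across all genes. With the number as a replicate block, limma called 3 ER genes higher (Ero1l, Sel1l and Edem1; 9.29% of all genes) and 3 lower (Creld2, Canx and Sec61b; 9.75% of all genes). On log2(FPKM + 1) without the block, only Ero1l of these 6 genes was called, while limma-voom without a block called all 6 and also Dnajb9. The values of these genes are given in full for that reason, a choice made after their values were seen.

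**Figure D2:**
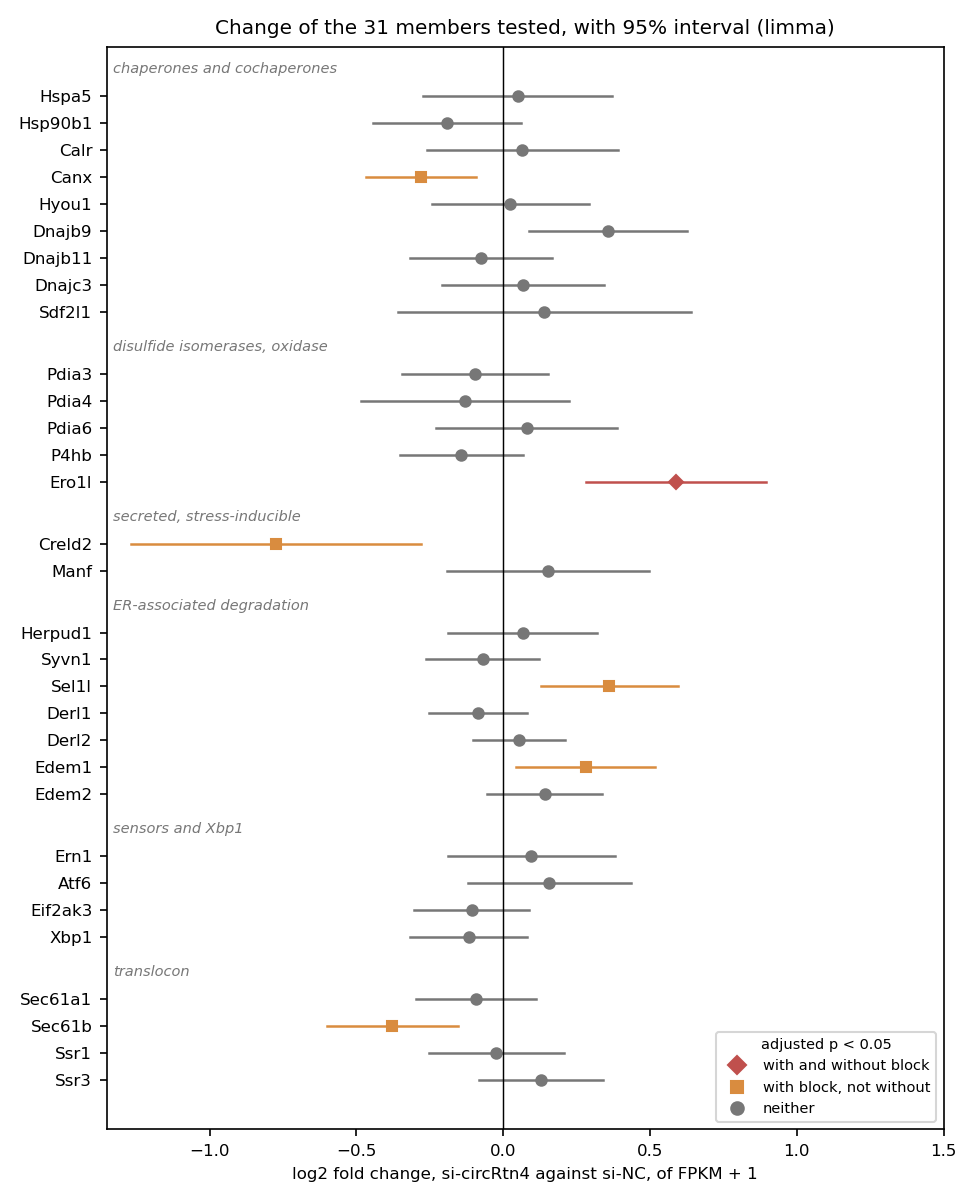
Log2 fold change of FPKM + 1 (si-circRtn4 against si-NC) of the 31 tested ER genes, with the 95% interval of limma without the block, grouped by role. The red diamond is Ero1l at 0.59, the orange squares are the 5 genes that passed on this scale with the replicate block and not without it, and 24 of the 31 points lie within 0.2 of 0.

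Among the chaperones, Hspa5 (BiP), the Hsp70 chaperone of the ER lumen and the usual marker of the response, was not called. Its level was 192, 205 and 194 FPKM under si-NC, and under si-circRtn4 it was 199, 251 and 169 FPKM. The si-circRtn4 libraries lay on both sides of all 3 controls, and their SD was 41.5 FPKM against 6.84 FPKM. The means were 197 and 206 FPKM, with a log2 fold change of 0.05 (95% interval −0.27 to 0.37, adjusted p = 0.863 by limma). The interval thus reaches past 0.2 in either direction.

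Hsp90b1 (GRP94), the Hsp90 of the ER, Calr (calreticulin), a lectin chaperone of glycoproteins, and Hyou1, a nucleotide exchange factor for BiP, had log2 fold changes of −0.19, 0.07 and 0.02. Dnajb11 and Dnajc3, Hsp40-type cochaperones of BiP, had −0.08 and 0.07, and Sdf2l1, a partner of Dnajb11, had 0.14. The adjusted p of these 6 genes was 0.318 or more by limma, and their groups overlapped.

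Canx (calnexin), the membrane-bound counterpart of Calr, had 173, 193 and 193 FPKM under si-NC, against 146, 154 and 159 FPKM under si-circRtn4. All 3 si-circRtn4 libraries were below all 3 controls, at 82.2% of the control mean (186 ± 11.7 against 153 ± 6.54 FPKM). The log2 fold change was −0.28 ± 0.08 (SE), with an adjusted p of 0.0711 by limma and 0.0256 with the replicate block. Over 13 alternatives the adjusted p of limma ranged from 0.0256 to 0.222. Calr, the soluble lectin of the same folding cycle, was at 190 ± 21.6 and 200 ± 34.0 FPKM, and the difference between the fold changes of Canx and Calr was not tested.

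Dnajb9 (ERdj4), a BiP cochaperone that represses IRE1 and is induced by XBP1, had 27.1, 24 and 33.3 FPKM under si-NC, against 35.8, 36.5 and 35.7 FPKM under si-circRtn4. All si-circRtn4 libraries exceeded the controls, the nearest control being replicate 3. The log2 fold change of 0.36 ± 0.12 (SE) was not called by limma (adjusted p = 0.101, and 0.0585 with the replicate block). It was called at 0.0341 by limma-voom on the recovered reads, and the range over the alternatives was 0.0341 to 0.262.

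Ero1l, also named Ero1a, is the oxidase that recharges protein disulfide isomerase so that it can form disulfide bonds. It rose from 20.1, 17.8 and 26.0 FPKM under si-NC to 33.1, 30.0 and 33.5 FPKM under si-circRtn4. All si-circRtn4 libraries were above all controls, and therefore each was also above the control with the same number. The mean went from 21.3 ± 4.19 to 32.2 ± 1.90 FPKM, 151% of the control, with a log2 fold change of 0.59 ± 0.13 (SE, 95% interval 0.28 to 0.90, adjusted p = 0.0342 by limma). With the replicate block the adjusted p was 0.0120. The call was lost in 5 of the 6 limma fits that left out 1 library (adjusted p of 0.0785 to 0.0995), with a log2 fold change of 0.48 to 0.64 in those fits, and in limma over all genes above 0 (0.108). It was kept without si-NC replicate 3 (0.0156).

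None of the 4 isomerases of the list was called beside Ero1l. P4hb, the protein disulfide isomerase itself, Pdia3 (ERp57), which works on glycoproteins bound to Canx and Calr, Pdia4 (ERp72) and Pdia6 (P5) had log2 fold changes of −0.14, −0.10, −0.13 and 0.08. Their adjusted p was 0.368 or more by limma, and their groups overlapped. Their levels spanned 45.9 to 187 FPKM over the libraries, so that each was more abundant than Ero1l per unit of length in both groups.

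Of the secreted stress-inducible proteins, Creld2 had the lowest fold change of the 31 genes. Creld2 encodes an EGF-domain protein of the ER that is known as an ATF6 target. Its level was 52.4, 57.0 and 40.0 FPKM under si-NC, against 26.8, 38.9 and 21.9 FPKM under si-circRtn4. The highest si-circRtn4 library lay just under the lowest control, and each was well below the control of its own number. The mean was 49.8 ± 8.77 against 29.2 ± 8.79 FPKM, 58.7% of the control. The log2 fold change of −0.77 ± 0.21 (SE, 95% interval −1.27 to −0.28) missed the threshold of limma at an adjusted p of 0.0639, and fell below it with the replicate block (0.00668). By replicate number the log2 difference was −0.94, −0.54 and −0.84. The alternatives gave 0.00668 to 0.189. Manf, a secreted protein that stabilises BiP complexes, was at 29.7 ± 2.61 and 33.5 ± 7.09 FPKM (adjusted p = 0.572 by limma). Its listed span overlaps Rbm15b and Dcaf1, which had means of 13.5 and 9.65 FPKM, and how reads in shared stretches were assigned is not given in the sources used here.

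Among the degradation genes, Sel1l and Edem1 stood highest. Sel1l, the scaffold of the HRD1 ubiquitin ligase complex, was at 19.4, 16.1 and 17.8 FPKM in si-NC and at 25.7, 22.4 and 21.1 FPKM in si-circRtn4. All si-circRtn4 libraries lay above all controls, at 130% of the control mean. The log2 fold change was 0.36 ± 0.10 (SE), with an adjusted p of 0.0648 by limma, 0.0195 with the replicate block and 0.0195 to 0.198 over the alternatives.

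Edem1, which trims mannose from misfolded glycoproteins and hands them to degradation, was at 17.4, 19.5 and 22.5 FPKM in si-NC and at 22.9, 24.6 and 25.1 FPKM in si-circRtn4. The groups were separate by a narrow margin between control replicate 3 and si-circRtn4 replicate 1. The log2 fold change was 0.28 ± 0.10 (SE), with an adjusted p of 0.132 by limma, 0.0380 with the replicate block and 0.0380 to 0.285 over the alternatives.

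Syvn1 (HRD1), the ubiquitin ligase that Sel1l supports, had a log2 fold change of −0.07, and Herpud1, which organises the same complex and responds strongly to ER stress, had 0.07. The membrane proteins Derl1 and Derl2, which help to draw substrates out of the ER, had −0.09 and 0.05, and Edem2, which starts mannose trimming, had 0.14. None of these 5 was called by limma (adjusted p of 0.342 or more), and their groups overlapped. Derl3, the third derlin and a stress-inducible one in many secretory cells, was at 0.432, 0.383 and 0.645 FPKM in si-NC and at 0.423, 0.645 and 0.518 FPKM in si-circRtn4, levels that rest on as few as 11 reads.

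Neither the 3 sensors nor Xbp1 were called. Ern1 was at 27.9, 21.5 and 24.5 FPKM in si-NC and at 30.3, 24.1 and 24.7 FPKM in si-circRtn4. In both groups replicate 1 was the highest and replicate 2 the lowest, and the log2 fold change was 0.10 (95% interval −0.19 to 0.38, adjusted p = 0.682 by limma). Atf6 was at 14.6, 12.5 and 17.3 FPKM in si-NC and at 17.3, 15.1 and 17.1 FPKM in si-circRtn4. These groups overlapped as well, with a log2 fold change of 0.16 (95% interval −0.12 to 0.43, adjusted p = 0.464 by limma).

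Eif2ak3, the lowest of the 4, was at 9.60, 8.54 and 10.0 FPKM in si-NC and at 8.48, 9.18 and 8.25 FPKM in si-circRtn4 (log2 fold change −0.11, 95% interval −0.30 to 0.09, adjusted p = 0.479 by limma). Xbp1 was at 58.6, 58.2 and 64.4 FPKM in si-NC and at 53.2, 60.9 and 52.9 FPKM in si-circRtn4. A pair of si-circRtn4 libraries lay below all controls and replicate 2 lay among them, with a log2 fold change of −0.12 (95% interval −0.32 to 0.08, adjusted p = 0.440 by limma). The intervals of these 4 genes leave room for differences of up to 0.43 on the log2 scale.

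Of the 4 channel genes, Sec61b had the lowest fold change. Sec61b, the small beta subunit of the Sec61 channel, was at 71.6, 69.1 and 70.1 FPKM in si-NC and at 47.7, 60.7 and 53.9 FPKM in si-circRtn4. The controls were close together, and all si-circRtn4 libraries were below them at 77.0% of the control mean. The log2 fold change was −0.38 ± 0.10 (SE), with an adjusted p of 0.0504 by limma, 0.0336 with the replicate block and 0.0292 to 0.132 over the alternatives.

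Sec61a1, the subunit that forms the pore, was at 52.7 ± 4.22 and 49.3 ± 3.28 FPKM, with a log2 fold change of −0.09 and overlapping groups. Ssr1 and Ssr3 encode subunits of the translocon-associated protein complex beside the channel. Ssr1 had −0.02, and Ssr3 had 0.13. The groups of Ssr3 were separate by a narrow margin (89.4, 106.5 and 106.8 FPKM in si-NC against 109, 114 and 107.2 FPKM in si-circRtn4). The adjusted p of these 3 genes was 0.425 or more by limma.

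**Figure D3:**
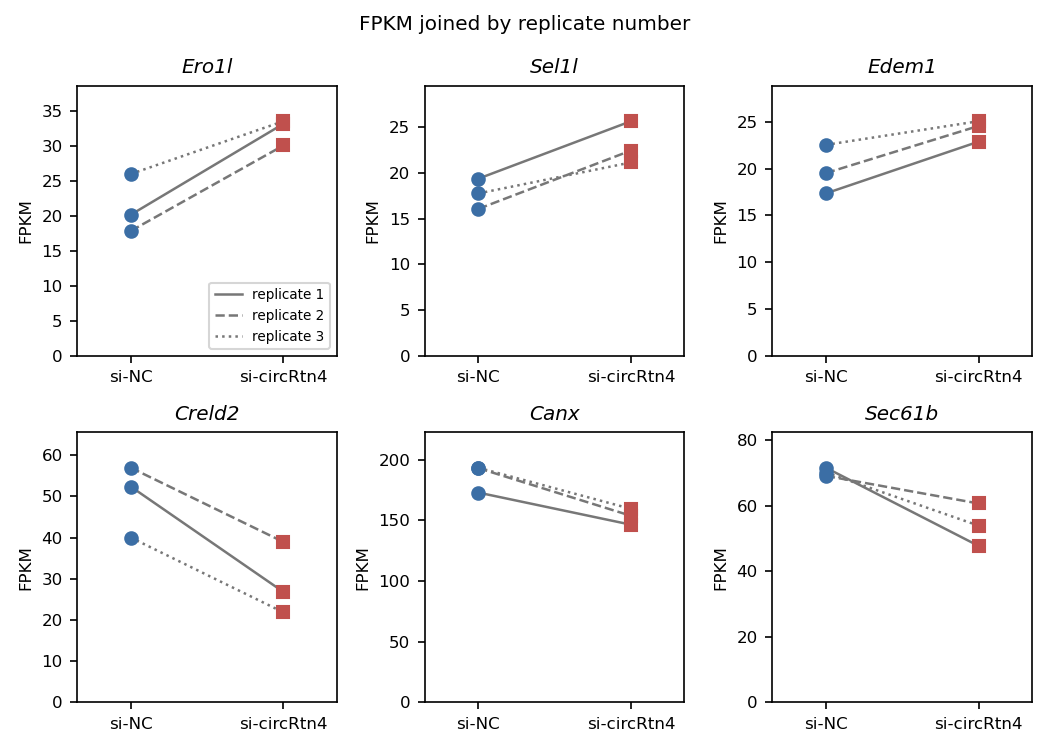
FPKM of the 6 ER genes called by limma with the replicate block, in si-NC (blue circles) and si-circRtn4 (red squares) libraries, with lines joining libraries of the same replicate number and axes that start at 0. All 3 lines go up for Ero1l, Sel1l and Edem1 and down for Creld2, Canx and Sec61b, with the controls of Creld2 at 40.0 to 57.0 FPKM. The groups of these 6 genes are separate, so their lines could not differ in direction, and this is no further support. Genes that were not called, such as Hsp90b1 (lower) and Manf (higher), also went 1 way in all 3 pairs.

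Many ER genes shared their high and low libraries within a group. The si-circRtn4 replicate 2 was above the 6-library mean of the gene for 26 of the 31 genes, with a median deviation of 0.12 on the log2(FPKM + 1) scale, and si-circRtn4 replicate 3 was above it for 10 of 31, with a median of −0.11. Over all genes the medians of these libraries were both 0.01. Hspa5, Calr, Pdia6, Manf, Hyou1, Sdf2l1, Dnajc3, Dnajb9 and Ssr3 each had their highest value of all 6 libraries in si-circRtn4 replicate 2. Their lowest si-circRtn4 value was in replicate 3. The SD within si-circRtn4 exceeded the difference between the group means for these genes except Dnajb9 and Ssr3, whose groups were separate.

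The 8 tested genes with an ERSE had a median deviation of 0.14 in si-circRtn4 replicate 2 and −0.22 in si-circRtn4 replicate 3, and the latter was below the own mean of all 8. Replicate 2 was the highest library of both groups for 6 of the 8, for 12 of the 31 ER genes (38.7%) and for 13.0% of all genes tested. As a set, 4 of the 8 had a positive and 4 a negative log2 fold change with a median of −0.01. The groups were separate for 2 that were lower, Creld2 and Canx (15.5% of all genes), and for 0 that were higher (16.2% of all genes). The fold changes of the other 6 ran from −0.19 to 0.08. Without si-circRtn4 replicate 2 the median log2 fold change of the 31 ER genes was −0.06 in place of 0.05.

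**Figure D4:**
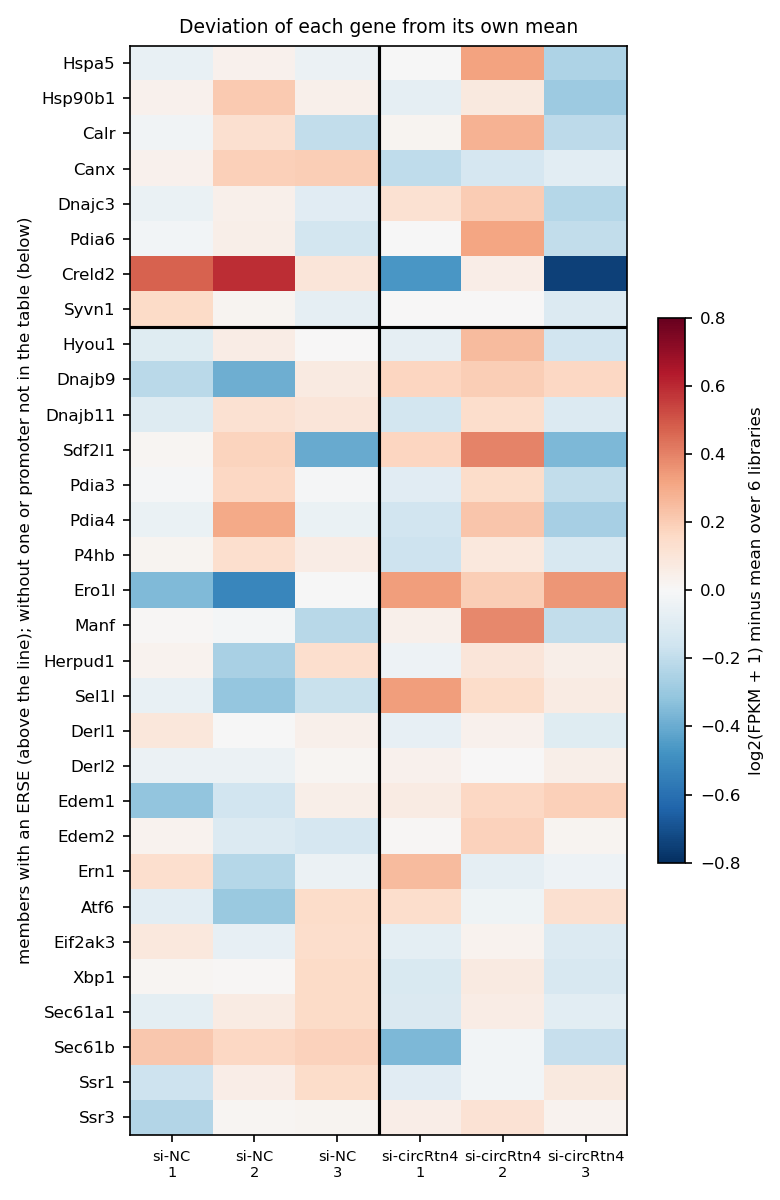
Deviation of log2(FPKM + 1) from the mean of the gene over the 6 libraries, for the 31 tested ER genes (rows) in each library (columns), red above and blue below the mean, with the 8 genes that hold an ERSE above the horizontal line. Red runs through most chaperones in si-circRtn4 replicate 2 and blue through them in replicate 3. Ero1l, Sel1l, Edem1 and Dnajb9, among others such as Ssr3, lie above their mean in all 3 si-circRtn4 libraries.

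For 10694 tested genes, the longest 3′ UTR in GENCODE M21 was scanned for seed matches of the small RNAs of the study. The siRNA is listed as cttcagatgagaccctttt. Its guide strand was taken as the reverse complement. The study does not name the guide, but its probe for antisense purification of circRtn4 contains this reverse complement. The guide is shown with its seed (bases 2 to 8) in capitals.
si-circRtn4 guide: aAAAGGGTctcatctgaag
miR-24-3p: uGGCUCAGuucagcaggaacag

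The site for the guide seed, ACCCTTT, was present in 2 of 31 ER genes (6.45%), Creld2 and Derl1, against 12.5% of all genes. Creld2 holds it at chr15:88826465-88826471 (GRCm38, plus strand), 29 bases into a 3′ UTR of 247 bases with an A behind it. Such 8mer sites were found in 2.48% of all genes. The surrounding 30 bases (chr15:88826454-88826483) read aagccaaactcACCCTTTaagttattgaga, with the site in capitals. Creld2 had the lowest fold change of the list, while Derl1, with a site at chr15:57871426-57871432 (minus strand) that is not an 8mer, had −0.09. The part of seed pairing in the values of Creld2 was not tested. The site of miR-24-3p (RefSeq mature sequence above), the miRNA that the study pairs with circRtn4, was CTGAGCC and occurred in P4hb, Derl1, Ern1 and Ssr1 (12.9% of the ER genes, against 19.6% of all genes). The median log2 fold change of these 4 was −0.05, beside 0.05 for the ER genes without the site. Derl1 (−0.09) and Ern1 (0.10) held 8mer sites (8.72% of all genes), while P4hb (−0.14) and Ssr1 (−0.02) did not. The part of these sites in the values was not tested.

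Beyond the 32 genes, 131 of 143 other genes of the same pathways were tested, in lists written with earlier results of these data known. Limma called 9 higher (6.87%, against 4.36% of all genes) and 7 lower (5.34%, against 4.82%), and the median log2 fold change of the 131 was −0.02. With the replicate block the counts were 16 (12.2%, against 9.29%) and 19 (14.5%, against 9.75%). The counts of the single lists below rest on 4 to 37 genes and are to be read against the same shares.

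Of 37 other chaperones and folding enzymes, 4 were called higher and 4 lower. Serp1, a small protein that binds the Sec61 channel and stabilises newly made membrane proteins, rose from 34.3 ± 1.97 to 55.6 ± 5.02 FPKM (log2 fold change 0.68, adjusted p = 0.00553 by limma) and was called in all 13 alternatives. The prolyl isomerases Fkbp11 and Fkbp7 went in opposite directions, Fkbp11 rising from 9.24 ± 1.42 to 15.8 ± 3.25 FPKM (adjusted p = 0.0312 by limma) and Fkbp7 falling from 4.65 ± 0.74 to 2.36 ± 0.21 FPKM (adjusted p = 0.0116 by limma).

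Of 20 glycan processing and oligosaccharyltransferase genes, 1 was called higher and 3 lower. Mogs, the glucosidase that removes the first glucose from new N-glycans, fell from 44.0 ± 2.82 to 31.6 ± 1.42 FPKM (adjusted p = 0.0134 by limma). The oligosaccharyltransferase subunits Tusc3 and Krtcap2 went in opposite directions, with log2 fold changes of −0.41 and 0.43 (adjusted p of 0.0468 and 0.0402 by limma). Of 21 further genes of the translocon, signal recognition particle and signal peptidase, limma called 0 in either direction (1 higher and 5 lower at an unadjusted p under 0.05), and 1 higher and 4 lower with the replicate block. Of 26 further degradation genes only Selenok was called, with a log2 fold change of 0.56 (adjusted p = 0.0261 by limma).

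Among 23 further sensors, transcription factors and PERK-branch genes, 2 were called higher and 0 lower by limma (5 and 0 at an unadjusted p under 0.05, against 13.1% and 12.8% of all genes). Ppp1r15a (GADD34), which directs the phosphatase that reverses PERK signalling, was at 35, 26.1 and 34.0 FPKM in si-NC and at 76.1, 80.1 and 56.9 FPKM in si-circRtn4. It rose in all si-circRtn4 libraries, at 224% of the control mean (log2 fold change 1.14 ± 0.16 SE, adjusted p = 0.00734 by limma). Atf3, a transcription factor induced by many stresses, was at 10.6, 12.1 and 12.9 FPKM in si-NC and at 20.6, 28.7 and 19.7 FPKM in si-circRtn4 and rose by 0.89 on the log2 scale (adjusted p = 0.0127 by limma). Of 4 tested genes whose mRNA IRE1 is known to cut, Pdgfrb was called, rising from 2.05 ± 0.69 to 4.77 ± 1.22 FPKM (adjusted p = 0.0316 by limma). Of the 6 limma fits without 1 library, Mogs was called in 5, Fkbp11 and Selenok in 2, and Krtcap2, Tusc3 and Pdgfrb in 1, with an adjusted p of up to 0.138, while Serp1, Fkbp7, Ppp1r15a and Atf3 were called in all 6.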

How the data were processed

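The authors deposited 1 table of FPKM per gene, with gene length, coordinates and biotype. The labels list Bowtie 0.12.2 and the builds mm8 and mm9 with no role, while 98.1% of the 54532 listed genes have the same start and end in GENCODE M21 (GRCm38). The counting tool and its strand setting are not given in the sources used here. Columns were assigned by the sample titles, and 6 further columns that match no label were not used. Reads were recovered from FPKM and gene length. In each library 100% of the products, genes at 0 included, were whole numbers of reads within a tolerance of 0.01, which was wider for the highest counts.

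Limma 3.58.1 (R 4.3.3, lmFit, eBayes with trend) was applied to log2(FPKM + 1) of the 12749 genes whose mean reached 1 FPKM. The p-values were adjusted by Benjamini-Hochberg over the same genes. Nothing says that the libraries came from separate cultures, so p-values measure the spread between these libraries, which may be technical. Each member is named, with values in every library for called members, the sensors, Xbp1 and Hspa5, and from each other list at most the 3 called genes of largest change. The members and lists were chosen with earlier results of these data known. For same-numbered libraries, deviations from the group means had correlations of 0.331, 0.190 and 0.226, and other library pairs at most 0.00913, so numbers were treated as pairs in the blocked fit, although the labels do not say what a number marks. Alternatives were a pseudocount of 0.1, no minimum mean, TPM with and without Gm23935, quantile normalization, limma-voom on recovered reads, the replicate block and leaving out each library, with the filter recomputed. Promoter, miRNA and 3′ UTR sequences come from RefSeq (GRCm38.p6) and GENCODE M21, and were searched with Python 3.11.15, pandas 2.3.3 and numpy 2.4.6. Of the 32 genes, 5 overlap another listed gene with a mean of at least 1 FPKM (Hsp90b1, Pdia3, Manf, Syvn1 and Derl2), where counting without strand could mix reads. Another neuronal marker gene of the list is not reported here.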

Additional observations from a re-analysis of the deposited data

How the results depend on the processing

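The ER genes called higher (1 by limma) numbered 0 with no minimum mean, 3 with TPM, 4 with limma-voom, 3 with the replicate block and 0 to 2 when 1 library was left out. Those called lower (0) numbered 1 with TPM without Gm23935, 2 with quantile normalization, 3 with limma-voom, 3 with the replicate block and 0 to 2 with 1 library left out. The other pathway genes called higher (9) numbered 2 with no minimum mean, 17 with TPM, 15 with limma-voom, 16 with the replicate block and 3 to 9 with 1 library left out. Those called lower (7) numbered 2 with no minimum mean, 2 with TPM, 19 with the replicate block and 1 to 5 with 1 library left out. TPM raised the median of all genes to 0.09 on the log2 scale, and the median of the ER genes became 0.14 with it. With 1 library left out that median ranged from −0.059 to 0.061. The replicate block changed the calls of Sel1l, Edem1, Creld2, Canx and Sec61b and of no other ER gene.

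Only Ero1l was called by limma, and its sign did not turn, while signs turned for several of the other ER genes. With TPM, Dnajb11 came to 0.016, Syvn1 to 0.018, Derl1 to 0.0065 and Ssr1 to 0.067. With 1 library left out, the log2 fold change ranged from −0.10 to 0.18 for Hspa5, −0.059 to 0.18 for Calr, −0.10 to 0.10 for Hyou1, −0.017 to 0.20 for Dnajc3, −0.026 to 0.35 for Sdf2l1, −0.058 to 0.20 for Pdia6, −0.0024 to 0.29 for Manf, −0.046 to 0.15 for Herpud1, −0.0057 to 0.19 for Ern1 and −0.11 to 0.045 for Ssr1. Without si-circRtn4 replicate 2, 7 genes turned sign. The cause was not tested. The median SE of the ER genes was 0.11 with 3 libraries per group, and a difference must be clearly larger than that to be called. Canx at −0.28, Sel1l at 0.36, Sec61b at −0.38 and Creld2 at −0.77 on the log2 scale were not called by limma without the block.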
